A study of Mus musculus with 8 samples.

Results

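The genes described here are 58 genes of DNA replication and S phase, given as a list of symbols. All 58 were found among the 47937 gene IDs of the count tables, and the rule that lists them uses no measured value. The list was chosen with earlier results of these data known, so counts over it are descriptions. They were followed in bone marrow-derived dendritic cells (BMDCs) from wildtype (WT) and 3xGrk-/- mice, unstimulated or stimulated with LPS. Mouse BMDCs are grown from bone marrow progenitors, some of which still divide while the others mature in the dish.

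A cell that enters S phase first loads the MCM helicase onto replication origins with the help of ORC, Cdc6 and Cdt1, and then fires those origins with Cdc45 and GINS. Polymerases copy the strands behind the helicase, Pcna clamps them to the template, and ribonucleotide reductase supplies the deoxynucleotides. Most of these genes are transcribed around the G1/S boundary under E2F transcription factors, so their mRNA is low in cells that have left the cell cycle. Dendritic cells and macrophages that mature in response to LPS, a bacterial cell wall component sensed by TLR4, are known to stop dividing.

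The series comprised 4 groups of 2 libraries. GEO's labels name the genotype of the knockout only as a triple Grk knockout. For BMDCs the paper uses 3xGrk-/- for cells of mice with floxed alleles of Grk2 and Grk6 (fl/fl), the transgene Vav-iCre and a germline deletion of Grk3 (Grk3-/-). It also describes a line with CD11c-Cre, and that these libraries come from the Vav-iCre line is inferred from this naming. In that line the G protein-coupled receptor kinases GRK2 and GRK6 are deleted by a Cre active in haematopoietic cells, and GRK3 in every cell. WT cultures came from mice without Cre. The mice were adults on a C57BL6/J background. Cultures received GM-CSF for 8 days, and LPS was then added at 20 ng/ml for 24 h. Per the paper's methods the RNA was extracted in technical triplicates, whereas 2 libraries per group were analysed here, and neither the labels nor the paper name separate cultures or mice behind the 2 libraries of a group. The p-values below therefore measure the spread between these libraries, which is likely technical, and not that between mice.

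Library totals lay between 4713305 and 6933358 counts, with a median of 6228400. The targeted genes were lower in both 3xGrk-/- libraries than in both WT libraries with either stimulation. Grk2 was at 46.4% and 27.1% of the WT level without and with LPS, Grk6 at 43.8% and 34.5%, and Grk3 at 78.1% and 75%. These counts cover the whole gene, so reads from exons outside the deletion are among them. All 11 dendritic cell markers were detected in every group, with a summed level of 26040 to 26280 CPM (counts scaled to the library total adjusted by TMM factors, which correct for library composition) in WT and 13330 to 13610 CPM in 3xGrk-/- libraries without stimulation. The 6 lymphocyte markers together reached at most 1.70 CPM in a library. The share of all counts that fell on the 58 replication genes was 0.281% to 0.283% in unstimulated WT, 0.134% to 0.136% in unstimulated 3xGrk-/-, 0.105% to 0.106% in LPS-stimulated WT and 0.0925% to 0.0944% in LPS-stimulated 3xGrk-/- libraries.

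Unstimulated WT BMDCs held the most replication mRNA of the 4 groups. The summed level of the 58 genes, in CPM scaled by TMM factors, was 2552 and 2543 CPM in the unstimulated WT libraries and 1296 and 1283 CPM in the unstimulated 3xGrk-/- libraries. After LPS it was 1094 and 1118 CPM in WT and 1041 and 1040 CPM in 3xGrk-/-. The groups did not overlap, and the unstimulated 3xGrk-/- mean was 50.6% of the unstimulated WT mean. With LPS the WT sum came down to 43.4% of its unstimulated value and the 3xGrk-/- sum to 80.7%, and the 3xGrk-/- sum after LPS was 94.1% of the WT sum. In such bulk samples fewer cycling cells and less of these mRNAs per cell cannot be told apart. With 2 libraries against 2, an exact two-sided permutation test of a single value cannot give a p below 0.333.

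**Figure D1:**
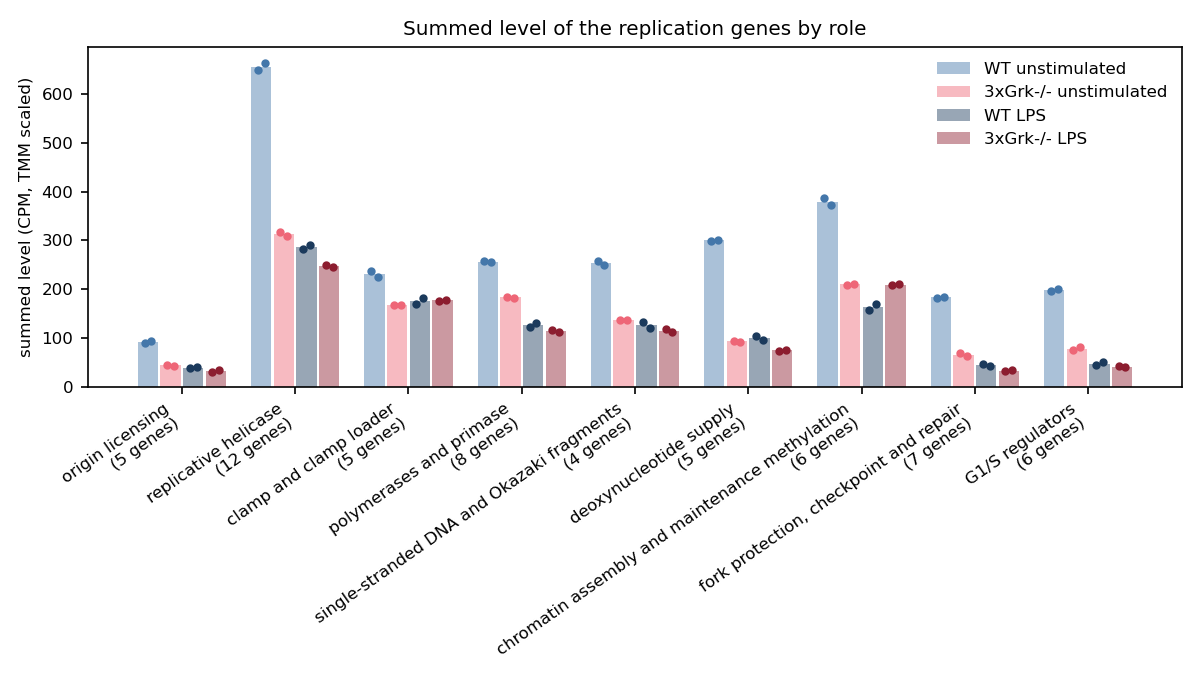
Summed level (CPM, TMM scaled, linear axis from 0) of the replication genes of each of 9 roles in the 4 groups. Bars are group means and the 2 points on a bar are its libraries. Unstimulated WT stands highest in every role, and in chromatin assembly and maintenance methylation the LPS-stimulated 3xGrk-/- bar (209 CPM) stands above the LPS-stimulated WT bar (163 CPM).

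The roles differed in how far they were lower in unstimulated 3xGrk-/- cells. The summed level of the 5 deoxynucleotide supply genes was 30.9% of that in WT, that of the 7 fork protection, checkpoint and repair genes 35.4%, and that of the 6 G1/S regulators 39%. At the other end, the 5 clamp and clamp loader genes were at 72.7% and the 8 polymerase and primase genes at 71.7%. Between them lay origin licensing at 47.5%, the helicase at 47.7%, single-stranded DNA and Okazaki fragment genes at 54.2% and chromatin genes at 55.4%. After LPS the genotypes lay closer, with the 3xGrk-/- sums between 73.9% of WT in repair and 101% in the clamp group, and at 128% in the chromatin group.

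Taken gene by gene, the order of the 4 group means was unstimulated WT, unstimulated 3xGrk-/-, LPS-stimulated WT and LPS-stimulated 3xGrk-/- in 31 of the 58 genes. Both unstimulated WT libraries lay above the other 6 libraries in 49 genes, and both unstimulated 3xGrk-/- libraries lay above both LPS-stimulated WT libraries in 39. The lowest mean was that of LPS-stimulated 3xGrk-/- cells in 38 genes. The share of all genes with these orders was not computed, so these counts only describe the 58 genes. Per kilobase of annotated exon, Pcna was the most abundant of the 58 genes in unstimulated WT cells at 50.9 CPM per kb, followed by Rrm2 at 36.2 CPM per kb and Fen1 at 28.8 CPM per kb. In LPS-stimulated 3xGrk-/- cells Pcna remained at 35.6 CPM per kb while Rrm2 was at 0.767 CPM per kb.

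**Figure D2:**
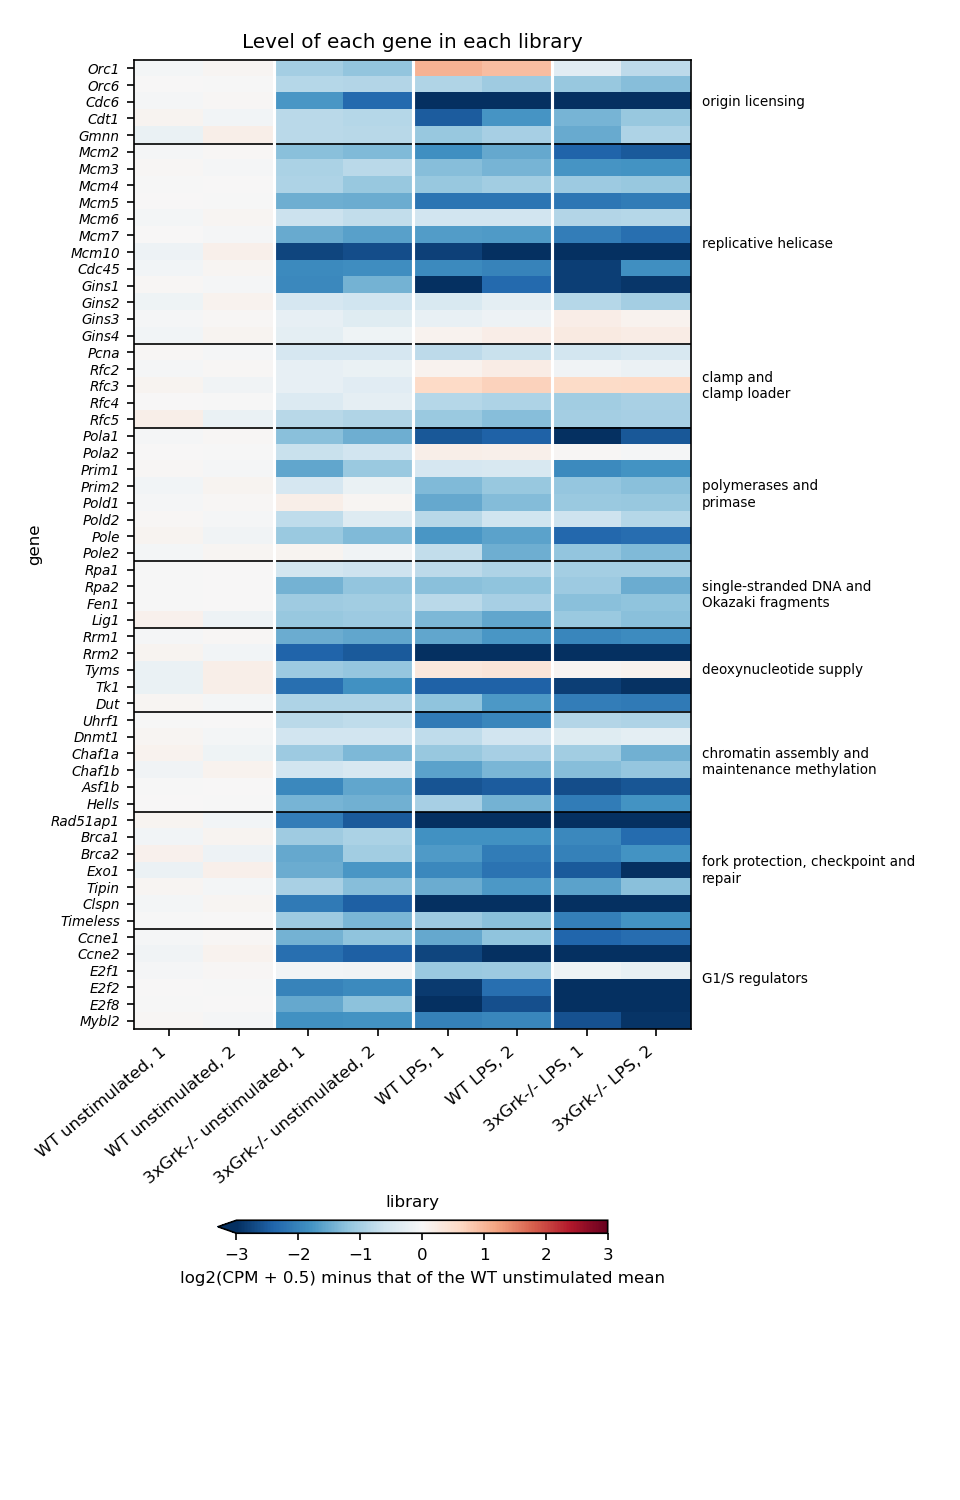
Level of each of the 58 genes (rows, ordered by role) in each of the 8 libraries (columns), as log2(CPM + 0.5) minus that of the unstimulated WT mean. Blue is lower and red higher, and values under -3 have the colour of -3. The columns of unstimulated 3xGrk-/- and of all LPS-stimulated cells are blue for most genes, and Orc1 and Rfc3 are the reddest rows in LPS-stimulated WT.

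Without stimulation, replication genes were lower in 3xGrk-/- BMDCs along the whole pathway, from licensing to nucleotide supply. In the quasi-likelihood test of edgeR, at a p under 0.05 after Benjamini-Hochberg adjustment across the whole table, 52 of the 58 genes were lower in 3xGrk-/- and 0 were higher. Over the 12000 genes tested, 22.7% were lower and 22.1% higher. At an unadjusted p under 0.05, 53 were lower and 0 higher in edgeR, and by DESeq2 45 were lower and 0 higher after adjustment (25.7% of all genes called in either direction), without Orc1, Gins2, Gins3, Rfc2, Prim2, Pold2 and Chaf1b. The median log2 fold change of the 58 genes was -1.15, beside -0.0017 over all genes tested, and it ranged from -2.89 for Mcm10 to 0.12 for Pold1. Both 3xGrk-/- libraries lay below both WT libraries in 56 genes, as they did in 34.9% of all genes tested. The 6 genes without a call were Gins4, Rfc3, Rfc4, Pold1, Pole2 and E2f1. With a biological coefficient of variation of 0.4 set for every gene, a spread far wider than the 0.0306 estimated from these libraries, 9 genes were called, beside 3.73% of all genes.

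After LPS the genotype difference was smaller and no longer in 1 direction. Of the 56 genes tested, 21 were lower and 5 higher in 3xGrk-/- cells, beside 24% lower and 24.7% higher among the 11830 genes tested. The 5 higher genes were Uhrf1, E2f1, Cdt1, Gins3 and Dnmt1. The median log2 fold change was -0.27, beside -0.0066 over all genes. Both 3xGrk-/- libraries lay below both WT libraries in 32 of all 58 genes, among them Exo1, which was not tested, beside 36.6% of all genes tested. The count rested on the tool and on single libraries. DESeq2 called 7 lower (Orc1, Mcm2, Prim1, Rrm2, Timeless, Ccne1 and E2f2) and 3 higher (Uhrf1, Dnmt1 and E2f1), and edgeR kept these 10 calls without any 1 of the libraries. These 10 of 56 stand beside 33.3% of all genes called by DESeq2. Leaving out replicate 1 or 2 of LPS-stimulated 3xGrk-/- left 17 or 14 calls of either direction in place of 26, beside 37.1% of all genes in both cases, and a coefficient of variation of 0.4 left 1, beside 6.61%. Exo1 and Gins1 did not pass the filter on low counts there, with 9 and 8 (Exo1) and 3 and 8 counts (Gins1) in WT and 5 and 3 (Exo1) and 4 and 4 counts (Gins1) in 3xGrk-/- libraries.

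**Figure D3:**
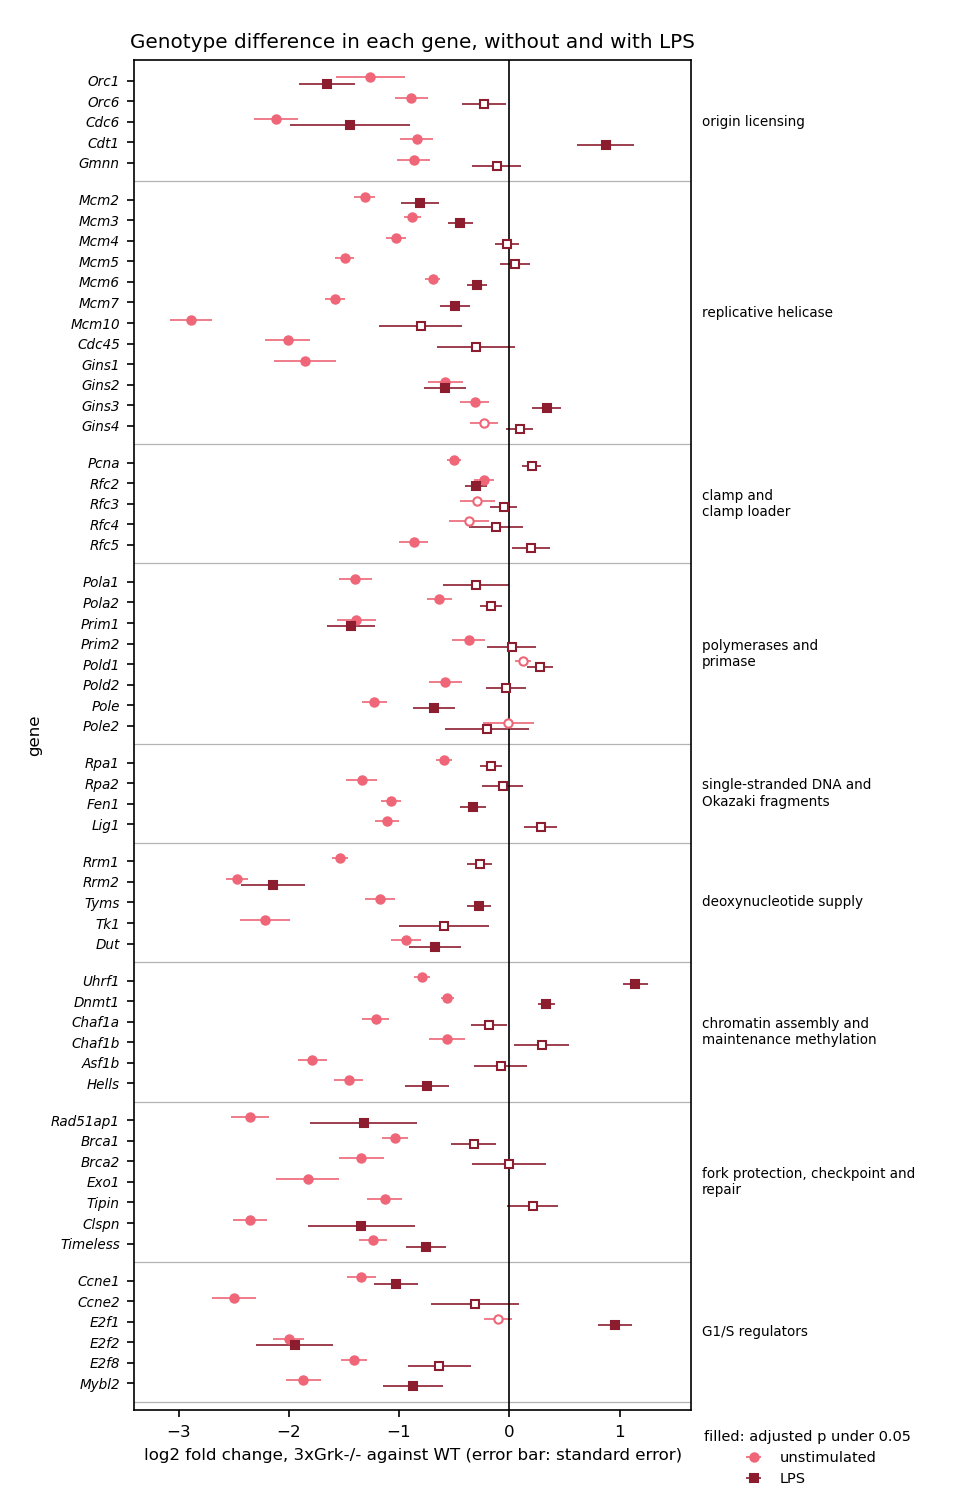
Difference between the genotypes for each gene as log2 fold change of 3xGrk-/- against WT (x axis, error bars are standard errors), without LPS (circles) and with LPS (squares), ordered by role. Filled symbols have an edgeR adjusted p under 0.05. Circles lie left of 0 for nearly every gene, from -2.89 to 0.12, while squares lie from -2.14 to 1.14 with Uhrf1, E2f1 and Cdt1 farthest to the right.

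LPS lowered replication genes in WT cells. In the fit of all 8 libraries, 51 of the 58 genes fell and 3 rose in WT after LPS, beside 30.8% lower and 29.5% higher of the 12541 genes tested, with a median log2 fold change of -1.40. The 3xGrk-/- response held 32 falls and 6 rises, beside 27.4% lower and 28% higher of all genes, and its median was -0.58. A coefficient of variation of 0.4 left 20 and 6 calls, beside 8.85% and 6.78% of all genes. The largest falls in WT were those of Clspn, Rad51ap1 and Cdc6, and in 3xGrk-/- those of Rrm2, Clspn and Cdc6. Rfc3 and Tyms rose in both genotypes, and Dnmt1 fell in WT and rose in 3xGrk-/-. Library size as the only scaling moved the median log2 fold change of all genes from -0.0072 to -0.23 in 3xGrk-/- and from -0.015 to -0.23 in WT. With it 44 of the 58 genes fell and 3 rose in 3xGrk-/-, beside 59.4% of all genes called, of which 30.2% were higher. The rises of Dnmt1, Gins3 and Gins4 in 3xGrk-/- and that of Tyms in WT were no longer called.

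The difference between the responses was tested as an interaction, which is at the same time the difference between the genotype effects with and without LPS. It was called above 0 for 35 of the 58 genes and called below 0 for none (0 of 58, also at an unadjusted p under 0.05 and in DESeq2), beside 16.5% above and 16% below of all genes. The median was 0.75. The largest values were those of Ccne2 (2.19 ± 0.47), Mcm10 (2.08 ± 0.48) and Uhrf1 (1.93 ± 0.13). DESeq2 called 21 of the 58 genes, beside 21.1% of all genes in either direction. A coefficient of variation of 0.1 left 23, beside 17.2%, and one of 0.4 left 0 with 4 at an unadjusted p under 0.05, beside 0.574%.

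**Figure D4:**
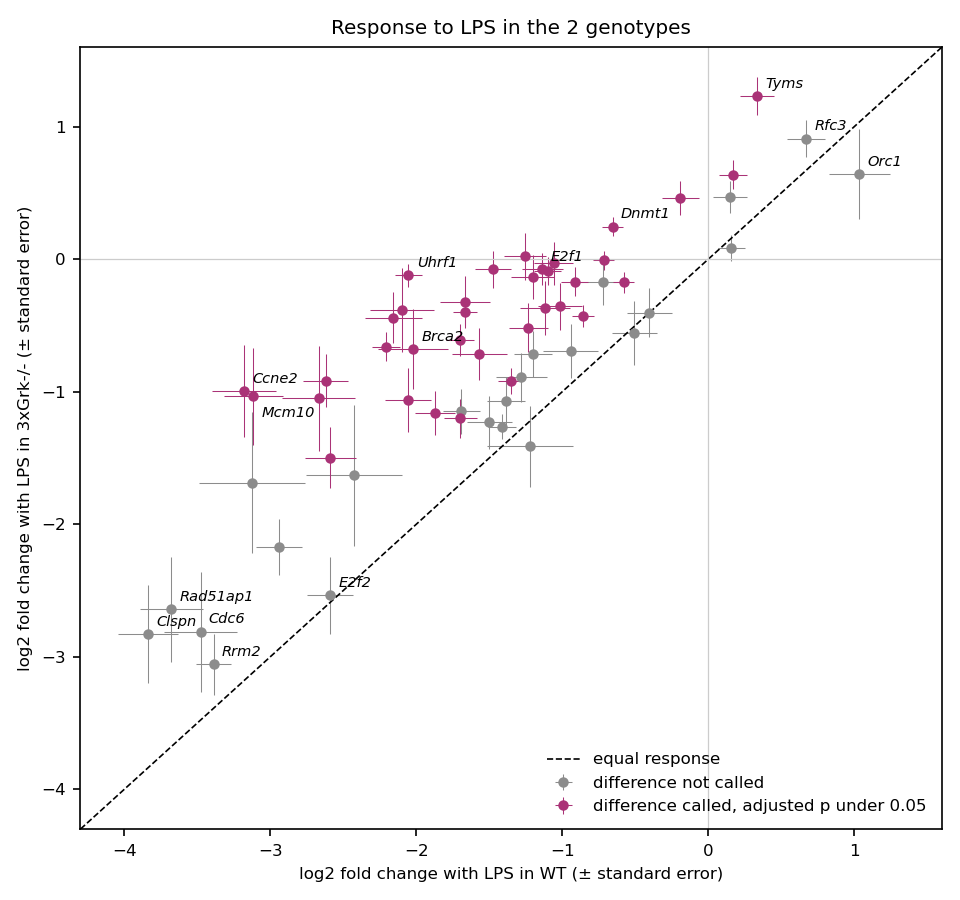
Log2 fold change with LPS of each of the 58 genes in WT (x axis) and in 3xGrk-/- (y axis), with standard errors. The dashed line marks an equal response, and purple genes differ between the genotypes at an edgeR adjusted p under 0.05. Purple points all lie above the line, Ccne2 and Mcm10 farthest from it, and Rrm2, Cdc6, Clspn and Rad51ap1 lie at the lower left.

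Origin licensing was lower in unstimulated 3xGrk-/- cells in all 5 genes, with log2 fold changes from -2.11 (Cdc6) to -0.84 (Cdt1). Cdc6, the ATPase that helps load MCM onto origins, had the lowest of them. Cdc6 lay at 18.1 and 19.3 CPM in WT and 5.24 and 3.299 CPM in 3xGrk-/- libraries without LPS, and at 1.63 and 1.702 CPM in WT and 0.545 and 0.649 CPM in 3xGrk-/- libraries with LPS. The genotypes did not overlap without LPS, with a log2 fold change of -2.11 ± 0.199 (edgeR adjusted p = 3.3e-25). The fall with LPS was -3.48 ± 0.25 (edgeR adjusted p = 1.1e-12) in WT and -2.81 ± 0.45 (edgeR adjusted p = 4.8e-06) in 3xGrk-/-. With LPS 3 to 11 counts per library stood behind Cdc6, and its genotype difference there, -1.45 ± 0.54 (edgeR adjusted p = 0.03), was lost in DESeq2 and without replicate 1 of either genotype.

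Cdt1, the partner of Cdc6 in loading MCM, changed sides between the stimulations. For Cdt1, the levels were 24.3 and 21.6 CPM without and 3.63 and 6.34 CPM with LPS in WT, against 12.9 and 12.5 CPM without and 8.36 and 10.2 CPM with LPS in 3xGrk-/- BMDCs. Without LPS both 3xGrk-/- libraries were lower than both WT libraries, and with LPS both were higher. The genotype differences were -0.84 ± 0.15 (edgeR adjusted p = 8.4e-08) without and 0.87 ± 0.26 (edgeR adjusted p = 0.0083) with LPS, and the difference between them was 1.71 ± 0.28 (edgeR adjusted p = 2.2e-05). The second call was lost in DESeq2 (adjusted p = 0.086) and without LPS-stimulated WT replicate 1 or 3xGrk-/- replicate 2.

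Orc1, the largest subunit of the origin recognition complex, was the 1 licensing gene that rose with LPS in WT. Unstimulated WT libraries held Orc1 at 5.16 and 5.61 CPM and unstimulated 3xGrk-/- libraries at 2.39 and 2.08 CPM, and with LPS the levels were 11.6 and 10.7 CPM in WT and 4.18 and 2.92 CPM in 3xGrk-/-. LPS-stimulated WT libraries were the highest of all and no pair of groups compared here overlapped. The log2 fold change with LPS was 1.03 ± 0.21 (edgeR adjusted p = 1.2e-04) in WT and 0.64 ± 0.34 (edgeR adjusted p = 0.11) in 3xGrk-/-, and the responses were not called different (-0.395, edgeR adjusted p = 0.51). 3xGrk-/- cells had less Orc1 than WT cells both without (-1.26 ± 0.31, edgeR adjusted p = 1.8e-04) and with LPS (-1.66 ± 0.25, edgeR adjusted p = 1.2e-05). DESeq2 did not call the first of these (adjusted p = 0.061).

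Gmnn, which blocks Cdt1 after origins have fired, and Orc6, the smallest ORC subunit, were the licensing genes with the highest mean CPM. Gmnn lay at 18.9 and 24.4 CPM in WT and 12.1 and 11.98 CPM in 3xGrk-/- libraries without LPS, and at 9.62 and 10.5 CPM in WT and 7.27 and 11.2 CPM in 3xGrk-/- libraries with LPS. The level of Orc6 was 22.5 and 21.9 CPM in WT and 12.1 and 11.8 CPM in 3xGrk-/- BMDCs without stimulation, and 11.6 and 10.4 CPM in WT and 9.82 and 8.92 CPM in 3xGrk-/- BMDCs after LPS. Both were lower in unstimulated 3xGrk-/- than in WT without overlap, with log2 fold changes of -0.87 ± 0.15 and -0.89 ± 0.15, and with LPS neither difference between genotypes passed the test (-0.12 and -0.23).

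Of the 12 helicase genes, 11 were lower in unstimulated 3xGrk-/- cells, and the activators Mcm10, Cdc45 and Gins1 were lower by more than any subunit of the MCM ring. Mcm3 and Mcm6 are subunits of that ring and had the highest mean CPM of the role. For Mcm3, the levels were 108 and 101 CPM without and 42.5 and 39.1 CPM with LPS in WT, against 54.1 and 59.2 CPM without and 30.4 and 29.5 CPM with LPS in 3xGrk-/- BMDCs. Mcm6 lay at 104 and 112 CPM in WT and 69.1 and 65.1 CPM in 3xGrk-/- libraries without LPS, and at 72.2 and 73.2 CPM in WT and 58.9 and 59.99 CPM in 3xGrk-/- libraries with LPS. For both genes the genotypes did not overlap with either stimulation. Their log2 fold changes without LPS were -0.88 ± 0.074 (edgeR adjusted p = 1.9e-31) and -0.696 ± 0.07 (edgeR adjusted p = 3.4e-22). With LPS they were -0.44 ± 0.11 (edgeR adjusted p = 0.0023) and -0.29 ± 0.09 (edgeR adjusted p = 0.011), and DESeq2 called neither (adjusted p = 0.051 and 0.11). The call of Mcm6 was also lost without either LPS-stimulated 3xGrk-/- replicate. The other ring subunits, Mcm2, Mcm4, Mcm5 and Mcm7, had log2 fold changes of -1.31, -1.03, -1.49 and -1.58 without LPS, all called. With LPS Mcm4 and Mcm5 were at -0.018 and 0.053, not called, and Mcm2 and Mcm7 were called lower at -0.81 and -0.49. The call of Mcm7 was lost in DESeq2 (adjusted p = 0.085) and without LPS-stimulated 3xGrk-/- replicate 2.

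Mcm10, a factor needed to activate the loaded helicase, had the lowest log2 fold change of the 58 genes between the genotypes without LPS. Unstimulated WT libraries held Mcm10 at 23.1 and 28.7 CPM and unstimulated 3xGrk-/- libraries at 3.44 and 3.65 CPM, and with LPS the levels were 3.27 and 2.79 CPM in WT and 1.64 and 1.78 CPM in 3xGrk-/-. Unstimulated 3xGrk-/- cells were thus about as low as LPS-stimulated WT cells. Their log2 fold change against unstimulated WT was -2.89 ± 0.19 (edgeR adjusted p = 8.7e-49), and that of the WT response to LPS, which shares the unstimulated WT libraries, was -3.12 ± 0.203 (edgeR adjusted p = 1.2e-13). After LPS the genotypes did not pass the test (-0.804 ± 0.38, edgeR adjusted p = 0.085). Cdc45 and Gins1, which complete the active helicase, were at -2.01 and -1.85 without LPS, both called. The GINS subunits Gins2, Gins3 and Gins4 were at -0.58, -0.31 and -0.23, of which that of Gins4 was not called. DESeq2 called neither Gins2 (adjusted p = 0.1) nor Gins3 (adjusted p = 0.35), and the call of Gins2 was lost without unstimulated WT replicate 2 and that of Gins3 without any 1 of the 4 libraries. Gins3 was higher in 3xGrk-/- after LPS (0.34, edgeR adjusted p = 0.038), a call lost in DESeq2 (adjusted p = 0.24), when scaled by library size alone, with the replicate block (adjusted p = 0.052) and without LPS-stimulated WT replicate 1 or either 3xGrk-/- replicate.

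The promoters of replication genes are known for E2F sites, and those of 4 genes are shown because their mRNA behaved differently. Mcm6 fell moderately in unstimulated 3xGrk-/- cells, Rrm2 was lower in 3xGrk-/- cells with either stimulation, Orc1 rose with LPS in WT, and Uhrf1 was higher in 3xGrk-/- after LPS. Each line holds the 250 bases before the transcription start as RefSeq places it on GRCm38.p6, on the strand of the gene, at chr4:108579204-108579453 (plus strand, Orc1), chr1:128359706-128359955 (minus, Mcm6), chr12:24708004-24708253 (plus, Rrm2) and chr17:56304063-56304312 (plus, the downstream of the 2 listed Uhrf1 starts). Capitals mark matches on either strand to the E2F site TTTCGCGC or TTTGGCGC or to its core GGCGGGAA or GGCGCGAA, which can overlap each other.
Orc1: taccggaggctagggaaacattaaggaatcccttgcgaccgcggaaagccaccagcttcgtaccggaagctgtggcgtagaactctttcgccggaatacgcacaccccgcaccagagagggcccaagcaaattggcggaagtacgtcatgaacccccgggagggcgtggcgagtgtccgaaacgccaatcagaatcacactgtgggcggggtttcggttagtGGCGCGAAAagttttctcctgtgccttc
Mcm6: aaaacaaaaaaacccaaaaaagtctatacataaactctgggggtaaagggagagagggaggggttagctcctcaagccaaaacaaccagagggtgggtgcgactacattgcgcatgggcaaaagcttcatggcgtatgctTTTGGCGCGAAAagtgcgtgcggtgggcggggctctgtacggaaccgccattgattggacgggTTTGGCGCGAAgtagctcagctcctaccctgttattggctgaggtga
Rrm2: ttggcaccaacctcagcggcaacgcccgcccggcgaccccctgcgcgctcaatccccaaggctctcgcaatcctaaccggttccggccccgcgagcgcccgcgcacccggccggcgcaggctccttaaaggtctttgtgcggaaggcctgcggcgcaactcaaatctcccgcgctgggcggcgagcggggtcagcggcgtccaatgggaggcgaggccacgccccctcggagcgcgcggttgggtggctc
Uhrf1: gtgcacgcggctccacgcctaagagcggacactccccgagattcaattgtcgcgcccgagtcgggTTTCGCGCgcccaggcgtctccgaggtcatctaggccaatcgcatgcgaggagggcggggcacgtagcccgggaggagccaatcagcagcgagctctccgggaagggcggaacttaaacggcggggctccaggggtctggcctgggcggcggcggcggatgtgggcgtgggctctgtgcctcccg
Mcm6 carries 5 overlapping matches in 2 stretches, Orc1 2 overlapping matches next to the start, Uhrf1 1 match, and Rrm2 no match to these letters.

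Promoter windows from 250 bases before to 50 after the start were listed for 47 of the 58 genes and for 27025 mouse genes in all. A match to the site or the core, on either strand in any listed window of the gene, was found in 21 of the 47 (44.7%) and in 3.8% of all genes. The CCAAT box (CCAAT) was found in 28 (59.6%), beside 41.1% of all genes. The letters TTTGAA of the CHR element, known from promoters of mitotic genes, were found in 9 (19.1%), beside 20.2% of all genes, and in 8 of the 12 mitosis markers listed. The median log2 fold change between genotypes was -1.11 in the 21 genes with and -1.27 in the 26 genes without an E2F match without LPS, and -0.27 and -0.29 with LPS. A match of letters is a description of the window and not evidence of binding.

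By summed level, the clamp and its loader differed least of the roles between the genotypes, without and with LPS, and changed least with LPS in WT. In 3xGrk-/- the chromatin genes changed less with LPS, to 99.7% of their unstimulated sum against 105% for the clamp and its loader. Pcna, the sliding clamp, and Rfc2, a small subunit of its loader, had the highest mean CPM of the 5 genes. For Pcna, the levels were 125 and 119 CPM without and 70.9 and 77.2 CPM with LPS in WT, against 86.2 and 85.8 CPM without and 83.3 and 87.4 CPM with LPS in 3xGrk-/- BMDCs. Without LPS both 3xGrk-/- libraries were below both WT libraries, a log2 fold change of -0.502 ± 0.064 (edgeR adjusted p = 3.6e-14), and with LPS both were above, which did not pass the test (0.202 ± 0.085, edgeR adjusted p = 0.056). The fall of Pcna with LPS in WT was -0.72 ± 0.072 (edgeR adjusted p = 1.2e-09), and in 3xGrk-/- cells the change was -0.0099 ± 0.074 (edgeR adjusted p = 0.92). Rfc2 lay at 49.1 and 51.1 CPM in WT and 42.03 and 43.8 CPM in 3xGrk-/- libraries without LPS, and at 53.7 and 58.2 CPM in WT and 46.9 and 44.1 CPM in 3xGrk-/- libraries with LPS. Rfc2 was lower in 3xGrk-/- by little, -0.23 ± 0.092 (edgeR adjusted p = 0.03) without and -0.302 ± 0.1 (edgeR adjusted p = 0.016) with LPS, and DESeq2 called neither (adjusted p = 0.31 and 0.15). Both calls were lost without WT replicate 2 or either 3xGrk-/- replicate of that stimulation and with a coefficient of variation of 0.1, and the first also without the filter on low counts and in the fit of all 8 libraries.

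Rfc3, another loader subunit, rose with LPS in both genotypes. The level of Rfc3 was 17.8 and 15.6 CPM in WT and 13.9 and 13.02 CPM in 3xGrk-/- BMDCs without stimulation, and 25.4 and 27.1 CPM in WT and 25.1 and 25.6 CPM in 3xGrk-/- BMDCs after LPS. Every LPS-stimulated library was above every unstimulated library, with log2 fold changes of 0.67 ± 0.13 (edgeR adjusted p = 6.3e-05) in WT and 0.91 ± 0.14 (edgeR adjusted p = 2.0e-06) in 3xGrk-/-. The genotypes were not called different with either stimulation (-0.29 and -0.052). Rfc4 fell with LPS in both (-0.94 and -0.696), in 3xGrk-/- not by DESeq2 (adjusted p = 0.069), and Rfc5 was lower in unstimulated 3xGrk-/- cells (-0.87, edgeR adjusted p = 5.7e-10).

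Polymerase genes split into those that were lower in unstimulated 3xGrk-/- cells and those that were not. Pold1, the catalytic subunit of the lagging-strand polymerase delta, was the 1 gene among the 58 whose unstimulated 3xGrk-/- libraries were both above those of WT. Pold1 lay at 78.5 and 81.3 CPM in WT and 90.5 and 83.7 CPM in 3xGrk-/- libraries without LPS, and at 27.4 and 32.3 CPM in WT and 36.9 and 35.8 CPM in 3xGrk-/- libraries with LPS. The genotype differences were 0.12 ± 0.071 (edgeR adjusted p = 0.15) without and 0.28 ± 0.12 (edgeR adjusted p = 0.056) with LPS, and neither passed the test. LPS lowered Pold1 in both genotypes without overlap, by log2 fold changes of -1.41 ± 0.095 (edgeR adjusted p = 2.6e-13) in WT and -1.26 ± 0.091 (edgeR adjusted p = 1.5e-12) in 3xGrk-/-. The accessory subunit Pold2 was at -0.58 without LPS, called lower, though not by DESeq2 (adjusted p = 0.078) or without unstimulated 3xGrk-/- replicate 1. Pole, the catalytic subunit of the leading-strand polymerase epsilon, was at -1.22 without and -0.68 with LPS, both called, the second not by DESeq2 (adjusted p = 0.091). Its partner Pole2 was at -0.0087 and -0.201, neither called.

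Pola2, the regulatory subunit of the polymerase alpha that starts each new strand, was lower in unstimulated 3xGrk-/- cells and rose there with LPS. For Pola2, the levels were 38.97 and 37.98 CPM without and 43.2 and 43.2 CPM with LPS in WT, against 24.1 and 25.5 CPM without and 39.3 and 37.8 CPM with LPS in 3xGrk-/- BMDCs. Both unstimulated 3xGrk-/- libraries were below the other 6 libraries, a log2 fold change of -0.63 ± 0.11 (edgeR adjusted p = 1.2e-07) against WT, and LPS raised it in 3xGrk-/- by 0.64 ± 0.11 (edgeR adjusted p = 1.3e-05). Pola1, the catalytic subunit, went the other way with LPS, at -2.59 in WT and -1.498 in 3xGrk-/-, both called. The primase subunit Prim1 was lower in 3xGrk-/- without (-1.39) and with LPS (-1.44), both called, while Prim2 was at -0.37, called, and 0.023, not called. The call of Prim2 was lost in DESeq2 (adjusted p = 0.36) and without unstimulated WT replicate 2 or 3xGrk-/- replicate 1.

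Genes for single-stranded DNA and Okazaki fragments were lower in unstimulated 3xGrk-/- cells in all 4 cases. Rpa1 is the large subunit of the protein that coats single-stranded DNA, and Fen1 is the nuclease that trims Okazaki fragments before ligation. Unstimulated WT libraries held Rpa1 at 106 and 106 CPM and unstimulated 3xGrk-/- libraries at 71.8 and 68.6 CPM, and with LPS the levels were 61.3 and 55.7 CPM in WT and 51.99 and 52.2 CPM in 3xGrk-/-. For Fen1, the levels were 69.2 and 70.5 CPM without and 39.5 and 34.8 CPM with LPS in WT, against 33.1 and 33.5 CPM without and 29.1 and 30 CPM with LPS in 3xGrk-/- BMDCs. The genotypes did not overlap with either stimulation in either gene. Without LPS the log2 fold changes were -0.59 ± 0.07 (edgeR adjusted p = 2.2e-16) and -1.07 ± 0.091 (edgeR adjusted p = 6.8e-31). With LPS they were -0.17 ± 0.099 (edgeR adjusted p = 0.18) and -0.33 ± 0.12 (edgeR adjusted p = 0.025), of which that of Fen1 was lost in DESeq2 (adjusted p = 0.2) and without LPS-stimulated WT replicate 1 or either 3xGrk-/- replicate. Rpa2 and the ligase Lig1 were at -1.34 and -1.11 without LPS, both called, and at -0.061 and 0.28 with LPS, neither called.

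Deoxynucleotide supply was the role whose summed level was lowest relative to WT in unstimulated 3xGrk-/- cells. Rrm1 and Rrm2 encode the large and the small subunit of ribonucleotide reductase, and Rrm2 is the subunit whose amount follows S phase. Rrm2 lay at 106 and 95.02 CPM in WT and 18.7 and 17.2 CPM in 3xGrk-/- libraries without LPS, and at 9.98 and 9.13 CPM in WT and 1.82 and 2.43 CPM in 3xGrk-/- libraries with LPS. Each group lay apart from the next, and the levels spanned from 106 CPM to 1.82 CPM. The genotype difference was -2.47 ± 0.096 (edgeR adjusted p = 7.4e-141) without and -2.14 ± 0.29 (edgeR adjusted p = 2.2e-06) with LPS, and these did not pass the test of a difference between them (0.33 ± 0.33, edgeR adjusted p = 0.52). The responses to LPS were -3.39 ± 0.12 (edgeR adjusted p = 1.1e-19) in WT and -3.06 ± 0.23 (edgeR adjusted p = 3.2e-12) in 3xGrk-/-. The level of Rrm1 was 125 and 131 CPM in WT and 45.03 and 43.2 CPM in 3xGrk-/- BMDCs without stimulation, and 43.4 and 37.6 CPM in WT and 32.7 and 34.2 CPM in 3xGrk-/- BMDCs after LPS. Its genotype difference without LPS was -1.54 ± 0.074 (edgeR adjusted p = 3.8e-93), and with LPS -0.27 ± 0.11 (edgeR adjusted p = 0.057), not called though the libraries did not overlap.

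Tyms, which makes thymidylate, was among the few genes that rose with LPS. Unstimulated WT libraries held Tyms at 25.2 and 32.8 CPM and unstimulated 3xGrk-/- libraries at 13.5 and 12.7 CPM, and with LPS the levels were 36.5 and 37.8 CPM in WT and 29.99 and 31.4 CPM in 3xGrk-/-. Unstimulated 3xGrk-/- libraries were the lowest, at a log2 fold change against unstimulated WT of -1.17 ± 0.14 (edgeR adjusted p = 3.5e-16). LPS raised Tyms in 3xGrk-/- by 1.23 ± 0.14 (edgeR adjusted p = 2.2e-08), without overlap, and in WT by 0.33 ± 0.12 (edgeR adjusted p = 0.015), a call lost in DESeq2 (adjusted p = 0.1), when scaled by library size alone and without unstimulated WT replicate 1 or LPS-stimulated WT replicate 2. The genotype difference after LPS, -0.27 ± 0.11 (edgeR adjusted p = 0.048), was lost in every alternative run except library size as the only scaling. Tk1, the thymidine salvage kinase, and Dut, which clears dUTP, were at -2.22 and -0.94 without LPS and fell with LPS in both genotypes, by log2 fold changes from -2.67 (Tk1, WT) to -1.05 (Tk1, 3xGrk-/-), the last lost in DESeq2 (adjusted p = 0.087) and without unstimulated replicate 2 or either LPS-stimulated replicate.

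Chromatin genes were all lower without LPS in 3xGrk-/- cells, and in all 6 the genotype effect differed with LPS in edgeR. DESeq2 did not call that difference for Chaf1b and Hells (adjusted p = 0.17 and 0.13). Uhrf1, which recognises newly replicated DNA methylated on 1 strand, and Dnmt1, the methyltransferase it recruits, had the highest mean CPM. For Uhrf1, the levels were 98.2 and 101 CPM without and 22.3 and 25.4 CPM with LPS in WT, against 56.7 and 58.5 CPM without and 53.5 and 52.4 CPM with LPS in 3xGrk-/- BMDCs. In WT the log2 fold change with LPS was -2.05 ± 0.092 (edgeR adjusted p = 3.1e-17), and in 3xGrk-/- the change was -0.12 ± 0.087 (edgeR adjusted p = 0.24), not called. Both 3xGrk-/- libraries were lower than WT without LPS (-0.79 ± 0.074, edgeR adjusted p = 2.3e-25) and higher with LPS (1.14 ± 0.11, edgeR adjusted p = 2.4e-08). This higher level held in every alternative run except a coefficient of variation of 0.4.

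Dnmt1 lay at 153 and 141 CPM in WT and 99.3 and 98.8 CPM in 3xGrk-/- libraries without LPS, and at 87.1 and 98.6 CPM in WT and 115 and 119.7 CPM in 3xGrk-/- libraries with LPS. It showed the same turn at a smaller size, with -0.56 ± 0.059 (edgeR adjusted p = 4.0e-20) without and 0.34 ± 0.08 (edgeR adjusted p = 0.0014) with LPS, and without overlap in either. Its fall in WT was -0.66 ± 0.071 (edgeR adjusted p = 5.5e-09) and its rise in 3xGrk-/- 0.25 ± 0.072 (edgeR adjusted p = 0.0052), the latter lost with library size as the only scaling, with a coefficient of variation of 0.1 and without LPS-stimulated 3xGrk-/- replicate 2. The chaperone genes Chaf1a, Chaf1b and Asf1b, which place histones on new DNA, were at -1.21, -0.56 and -1.78 without LPS, all called (Chaf1b not by DESeq2 or without unstimulated WT replicate 2), and at -0.18, 0.29 and -0.079 with LPS, none called. Hells, a chromatin remodeller, was lower with both (-1.46 and -0.74), the call with LPS being lost in DESeq2 (adjusted p = 0.051) and without LPS-stimulated WT replicate 1.

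Fork protection, checkpoint and repair genes were all lower in unstimulated 3xGrk-/- cells, and all 7 fell with LPS in WT. Clspn encodes claspin, which passes the stalled-fork signal on to the kinase Chk1, and Rad51ap1 a factor of recombination repair. Unstimulated WT libraries held Clspn at 33.4 and 36.02 CPM and unstimulated 3xGrk-/- libraries at 7.63 and 5.904 CPM, and with LPS the levels were 1.996 and 2.79 CPM in WT and 0.545 and 1.297 CPM in 3xGrk-/-. The level of Rad51ap1 was 29.99 and 26.5 CPM in WT and 6.28 and 4.51 CPM in 3xGrk-/- BMDCs without stimulation, and 2.36 and 2.01 CPM in WT and 1.09 and 0.649 CPM in 3xGrk-/- BMDCs after LPS. Both genes fell from group to group in the same order, and no 2 groups overlapped. Their genotype differences without LPS were -2.35 ± 0.16 (edgeR adjusted p = 5.7e-50) and -2.35 ± 0.17 (edgeR adjusted p = 5.1e-41). Their falls with LPS in WT, -3.84 ± 0.204 (edgeR adjusted p = 1.2e-15) and -3.68 ± 0.22 (edgeR adjusted p = 1.2e-14), were the largest in that response among the 58 genes. With LPS the differences between genotypes were -1.34 ± 0.48 (edgeR adjusted p = 0.025) and -1.32 ± 0.48 (edgeR adjusted p = 0.027), and DESeq2 called neither (adjusted p = 0.24 and 0.26). The call of Clspn was also lost without LPS-stimulated WT replicate 2 or 3xGrk-/- replicate 1, and that of Rad51ap1 without any 1 of the 4 libraries.

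Brca1, which acts in recombination repair, and Timeless, which keeps polymerase and helicase together at the fork, had the highest mean CPM of that role. Brca1 lay at 37.6 and 42.2 CPM in WT and 18.9 and 20.5 CPM in 3xGrk-/- libraries without LPS, and at 10.9 and 10.99 CPM in WT and 9.998 and 7.62 CPM in 3xGrk-/- libraries with LPS. For Timeless, the levels were 36.7 and 37.1 CPM without and 17.1 and 15.2 CPM with LPS in WT, against 17.2 and 13.9 CPM without and 8.54 and 10.4 CPM with LPS in 3xGrk-/- BMDCs. Unstimulated WT libraries were far above the rest for both. The log2 fold changes were -1.03 ± 0.12 (edgeR adjusted p = 2.3e-17) and -1.24 ± 0.13 (edgeR adjusted p = 2.8e-21) without LPS, and with LPS Timeless remained lower in 3xGrk-/- (-0.75 ± 0.18, edgeR adjusted p = 0.0017) while Brca1 did not pass the test (-0.32 ± 0.205, edgeR adjusted p = 0.21). Tipin, the partner of Timeless, Brca2 and the nuclease Exo1 were at -1.13, -1.34 and -1.83 without LPS, all called.

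Among the G1/S regulators the E2F genes parted. E2f1 and E2f2 are activators of S phase genes, and E2f8 is a repressor that E2F activity itself induces. E2f1 lay at 24.4 and 25.8 CPM in WT and 23.6 and 23.3 CPM in 3xGrk-/- libraries without LPS, and at 11.4 and 11.4 CPM in WT and 23.1 and 21.6 CPM in 3xGrk-/- libraries with LPS. LPS-stimulated WT libraries stood alone at about the level of 11.4 CPM, with the other 6 libraries from 21.6 to 25.8 CPM. E2f1 was not called between the genotypes without LPS (-0.104 ± 0.13, edgeR adjusted p = 0.54) and was higher in 3xGrk-/- with LPS (0.96 ± 0.16, edgeR adjusted p = 2.6e-05), where it had fallen in WT (-1.14 ± 0.14, edgeR adjusted p = 5.1e-08) and was not called changed in 3xGrk-/- (-0.074 ± 0.12, edgeR adjusted p = 0.63).

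E2f2 was lower in 3xGrk-/- cells with either stimulation. For E2f2, the levels were 40.5 and 40.1 CPM without and 5.08 and 8.04 CPM with LPS in WT, against 9.72 and 10.4 CPM without and 1.82 and 1.62 CPM with LPS in 3xGrk-/- BMDCs. The groups did not overlap, the genotype difference was -2.001 ± 0.14 (edgeR adjusted p = 4.8e-46) without and -1.95 ± 0.35 (edgeR adjusted p = 8.0e-05) with LPS, and the test of the difference between the stimulations gave 0.053 ± 0.39 (edgeR adjusted p = 0.95). Unstimulated WT libraries held E2f8 at 45.5 and 46.8 CPM and unstimulated 3xGrk-/- libraries at 15.7 and 19.4 CPM, and with LPS the levels were 4.899 and 6.96 CPM in WT and 3.64 and 4.05 CPM in 3xGrk-/-. For E2f8 the differences were -1.41 ± 0.12 (edgeR adjusted p = 1.6e-31) without and -0.64 ± 0.29 (edgeR adjusted p = 0.071) with LPS, of which the second was not called.

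Ccne2 encodes cyclin E2, which starts S phase with Cdk2. The level of Ccne2 was 19.7 and 22.7 CPM in WT and 4.04 and 3.47 CPM in 3xGrk-/- BMDCs without stimulation, and 2.72 and 2.01 CPM in WT and 1.82 and 1.95 CPM in 3xGrk-/- BMDCs after LPS. Unstimulated 3xGrk-/- libraries lay below unstimulated WT at a log2 fold change of -2.496 ± 0.2 (edgeR adjusted p = 1.4e-34), the second lowest of the 58 genes, and after LPS the genotypes were not called different (-0.31 ± 0.396, edgeR adjusted p = 0.56). Its paralogue Ccne1 was lower in 3xGrk-/- with both (-1.34 and -1.03), as was Mybl2, a cell cycle transcription factor (-1.87 and -0.87). The call of Mybl2 with LPS was lost in DESeq2 (adjusted p = 0.15) and without replicate 2 of LPS-stimulated WT or 3xGrk-/-.

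The genotype effects without and with LPS share no library. Across the 56 genes tested with either stimulation they correlated at Pearson's r = 0.625 and Spearman's rho = 0.657. Over all 11350 genes tested in both, the values were 0.63 and 0.448, so Pearson's r of the 56 genes was not above that of all genes. The 2 effects share the genotype and the gene's base composition and depth, and no test was made.

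Other lists of replication genes were compared in the same fits. Of all genes tested without LPS, 22.7% were lower and 22.1% higher in 3xGrk-/-. Of 27 other replication factors, 13 were lower and 3 higher in unstimulated 3xGrk-/- cells, among them Ticrr (-1.91, edgeR adjusted p = 7.4e-20), which fires origins, Chtf18 (-1.52, edgeR adjusted p = 8.8e-14), of an alternative clamp loader, and Dbf4 (-1.24, edgeR adjusted p = 5.1e-15), the activator of Cdc7 kinase. Of 16 other nucleotide synthesis genes 11 were lower and 2 higher, among them Dctpp1 (-1.29, edgeR adjusted p = 1.1e-15) and Dck (-1.19, edgeR adjusted p = 1.4e-39). Of 15 other checkpoint and repair genes tested 14 were lower and 0 higher, among them Fancd2 (-2.12, edgeR adjusted p = 8.8e-22) and Blm (-1.18, edgeR adjusted p = 1.1e-11). With LPS the lower and higher calls in these lists were 7 and 4 of 26, 4 and 3 of 15, and 4 and 1 of 12, beside 24% lower and 24.7% higher of all genes tested. The lower counts lie near that share. Named there by the same rule were Wdhd1 (-1.41, edgeR adjusted p = 5.8e-07), Dna2 (0.897, edgeR adjusted p = 0.0011) and Donson (0.62, edgeR adjusted p = 0.0027), Impdh1 (1.92, edgeR adjusted p = 4.0e-07), Shmt2 (-0.68, edgeR adjusted p = 2.1e-04) and Umps (0.61, edgeR adjusted p = 0.012), and Fanca (1.27, edgeR adjusted p = 2.7e-05) and Atr (-0.58, edgeR adjusted p = 6.5e-04).

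Other cyclins, kinases and E2F genes of G1/S were lower in 13 and higher in 2 of 17 cases without LPS, and lower in 7 and higher in 1 of 16 with LPS. Of all genes tested, 22.7% were lower and 22.1% higher without, and 24% lower and 24.7% higher with LPS. The repressor E2f7 (-3.04, edgeR adjusted p = 3.2e-34), cyclin A2 (Ccna2, -2.601, edgeR adjusted p = 2.9e-100) and Skp2 (-1.33, edgeR adjusted p = 8.3e-12), which degrades the inhibitor p27, were among those lower without LPS. With LPS Ccnd3 (-1.39, edgeR adjusted p = 3.6e-11) and Cdk2 (-0.64, edgeR adjusted p = 4.7e-05) were lower and Ccnd1 (1.22, edgeR adjusted p = 6.7e-05) higher. Brakes on S phase showed no common direction, with 5 higher and 5 lower of 12 tested without LPS and 3 higher and 4 lower with LPS. The inhibitors of cyclin D kinases went both ways. Cdkn2b was higher in 3xGrk-/- with both stimulations (0.8 and 0.55), Cdkn2c lower with both (-1.57 and -1.06), Cdkn2d lower without LPS (-0.83) and Cdkn2a higher with LPS (0.86), all called.

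G2 and mitosis markers, which mark cells past S phase, were lower in the same comparisons. The shares of all genes called in these comparisons are those given above. All 14 were lower in 3xGrk-/- cells without LPS (median log2 fold change -2.53), led by Ccnb2 (-3.26, edgeR adjusted p = 9.0e-66), Plk1 (-3.08, edgeR adjusted p = 1.5e-56) and Birc5 (-2.77, edgeR adjusted p = 8.6e-70), and their summed level was 883 and 885 CPM in WT and 166 and 162 CPM in 3xGrk-/- libraries. LPS lowered all 14 in WT, to a sum of 112.5 and 124 CPM. With LPS 11 of the 14 were lower in 3xGrk-/-, whose sum was 73.4 and 69.6 CPM, Cdk1 (-0.78, edgeR adjusted p = 0.0028) and Top2a (-0.44, edgeR adjusted p = 0.014) among them.

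Markers of other cell types also moved between the groups. Beside the counts of calls below, 22.7% of all genes tested were lower and 22.1% higher in 3xGrk-/- without LPS. With LPS these shares were 24% and 24.7%. Of 11 myeloid progenitor markers, 6 of 10 tested were lower and 0 higher in unstimulated 3xGrk-/- cells, with a summed level of 177 to 178 CPM in WT and 105 to 110.4 CPM in 3xGrk-/-. With LPS 8 of 11 were lower and 0 higher, at 142.2 to 142.6 CPM in WT and 77.4 to 79.9 CPM in 3xGrk-/-. The 5 eosinophil markers summed to 905 to 961 CPM in WT and 54 to 57.6 CPM in 3xGrk-/- without LPS, 4 of them lower, and to 896 to 966 CPM and 36.2 to 42.4 CPM with LPS, all 5 lower. Neutrophil markers summed to 713 to 761 CPM and 525 to 541 CPM without LPS (5 of 8 lower) and to 336 to 392 CPM and 186 to 204 CPM with LPS (6 of 7 lower). Of the dendritic cell markers 8 of 11 were lower and 3 higher without and 9 lower and 2 higher with LPS, when their sum was 16600 to 18160 CPM in WT and 14250 to 14510 CPM in 3xGrk-/-. The 11 macrophage markers summed to 1064 to 1089 CPM in WT and 2252 to 2284 CPM in 3xGrk-/- without LPS (6 higher, 4 lower), and to 452 to 459.5 CPM and 5685 to 5768 CPM with LPS (all 11 higher). Stromal markers (Col1a1, Col1a2, Col3a1 and Dcn) stayed at or below 6.9 CPM in 6 libraries and reached 127 to 138 CPM in LPS-stimulated 3xGrk-/- cells, where all 4 were higher than in WT. Mast cell and basophil markers summed to 41.3 to 42.4 CPM and 48.2 to 52.1 CPM without LPS (3 of 5 lower, 1 higher) and to 42.5 to 44.6 CPM and 32.9 to 33.9 CPM with LPS (3 lower). Erythroid markers, of which Hba-a1 and Hba-a2 had no counts, stayed at or below 16.9 CPM. The part of these shifts in the replication gene differences was not tested.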

How the data were processed

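BMDC RNA was sequenced from 2 libraries for each of 4 groups (WT or 3xGrk-/-, unstimulated or LPS), grouped by the sample labels. The authors aligned reads to mm10 with STAR and counted them with featureCounts in snakePipes. The deposited values are raw counts of reads per gene in 2 tables, 1 for each stimulation. Libraries were made with a stranded mRNA kit. The annotation release and the strand option of featureCounts are not given in the sources used here, so whether reads of overlapping antisense genes were kept apart is not known. Totals of 4713305 to 6933358 counts set the precision, and the 58 genes had 3 to 1006 counts per library.

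IDs were matched without version to GENCODE names (47224 of 47937), and 0.0847% of counts lay on unmatched IDs. Exon lengths were those of GENCODE M21 on GRCm38. Promoter sequences are from RefSeq on GRCm38.p6. Genotypes were compared within each table, and the LPS responses and the interaction in 1 fit of all 8 libraries, with edgeR 4.0.16 in R 4.3.3 (TMM scaling, filterByExpr, glmQLFit, glmQLFTest, Benjamini-Hochberg over all genes tested, adjusted p under 0.05). Standard errors were obtained as the unshrunk log2 fold change over the square root of F. Levels are CPM with the TMM factors of the 8-library fit. The fits were tested on simulated counts. Alternatives were DESeq2 1.42.0 with its own size factors, RLE or no scaling factors, no filter or at least 10 counts in every library, a replicate block, fixed coefficients of variation of 0.1 and 0.4, a log2 fold change of at least 1, other sets of libraries in the fit, and leaving out each library.

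Given with a value in every library were the 2 genes of each role with the highest mean CPM and, for each comparison and direction, the 3 called genes that changed most. Outside the 58, up to 3 called genes per pathway list with the largest log2 fold change at a mean log2 CPM of at least 3 are named for each genotype comparison. Some genes that this rule selects are not reported here. The 58 genes and all lists were chosen with earlier results of these data known, so their counts are descriptions. Library pairs differed by more than counting noise (mean chi-square per gene from 1.59 to 9.02 and median from 0.526 to 0.874 over genes with at least 20 counts), and over the 58 genes by about counting noise (0.725 to 1.13). The highest mean over all genes, 9.02, was that of LPS-stimulated 3xGrk-/-, which had the lowest over the 58 genes, 0.725. Its replicate 2 had 2.16% of its counts on Gm42418, a gene overlapping ribosomal RNA, beside 0.273% to 0.638% in the other 7 libraries.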

Additional observations from a re-analysis of the deposited data

Results flagged for a closer look

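The effect of the genotype differed between the stimulations in 35 of the 58 replication genes by the interaction term in edgeR (quasi-likelihood test, p under 0.05 after Benjamini-Hochberg adjustment). All 35 values were positive, so that the log2 fold change of 3xGrk-/- against WT was higher with LPS than without. DESeq2 did not call 14 of them (Orc6, Gmnn, Mcm2, Mcm3, Mcm6, Gins3, Pola1, Pola2, Tk1, Chaf1b, Hells, Brca1, Brca2 and Mybl2), of which 12, all but Mcm6 and Gins3, also lost their call without at least 1 of the libraries, as did Cdc45. Mcm2 was the least stable, with its call lost in 12 alternatives, among them the replicate block (adjusted p = 0.059). No explanation was weighed. The values below are those log2 differences.

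In origin licensing they were 0.66 for Orc6, 1.71 for Cdt1 and 0.75 for Gmnn. In the helicase the ring subunits had 0.498 (Mcm2), 0.44 (Mcm3), 1.01 (Mcm4), 1.55 (Mcm5), 0.404 (Mcm6) and 1.09 (Mcm7), and the activating factors 2.08 (Mcm10), 1.71 (Cdc45) and 0.65 (Gins3). The clamp and its loader had 0.71 (Pcna) and 1.07 (Rfc5), and polymerase alpha 1.09 (Pola1) and 0.47 (Pola2).

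Single-stranded DNA and Okazaki fragment genes had 0.43 (Rpa1), 1.28 (Rpa2), 0.74 (Fen1) and 1.396 (Lig1). Deoxynucleotide supply had 1.27 (Rrm1), 0.896 (Tyms) and 1.62 (Tk1). The chromatin genes had 1.93 (Uhrf1), 0.901 (Dnmt1), 1.03 (Chaf1a), 0.85 (Chaf1b), 1.71 (Asf1b) and 0.71 (Hells), which is every member of that role. Repair genes had 0.71 (Brca1), 1.34 (Brca2) and 1.34 (Tipin), and G1/S regulators 2.19 (Ccne2), 1.06 (E2f1) and 0.998 (Mybl2).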

How the results depend on the processing

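No value changed its direction while called. Of 4354 values of single genes under an alternative, 3930 kept their side of the threshold, 376 lost a call and 48 gained one. DESeq2 moved the count of called genes from 26 to 10 in the comparison of genotypes with LPS and from 35 to 21 in the interaction. A coefficient of variation of 0.1 left 23 calls in the interaction. A coefficient of 0.4 left 9, 1, 20, 6 and 0 calls (genotype without LPS, genotype with LPS, LPS in WT, LPS in 3xGrk-/-, interaction) in place of 52, 26, 54, 38 and 35. The shares of all genes called in these runs are given further above. Requiring a log2 fold change of at least 1 left 34 and 9 in the genotype comparisons, beside 12% and 16.8% of all genes. The 9 of 56 with LPS lie near that share. This threshold left 43 in the WT response, beside 21.5%, 20 in the 3xGrk-/- response, beside 18.9%, and 19 in the interaction, beside 11%. Leaving out each library in turn gave 47 to 51, 14 to 22, 53 to 54, 33 to 41 and 27 to 35 calls in the same order, with the lowest of the genotype comparison with LPS (17 and 14) without replicate 1 or 2 of LPS-stimulated 3xGrk-/-. The 3xGrk-/- response gave more calls (41, in place of 38) without either LPS-stimulated WT library. In each run without 1 library, the called share of the replication genes tested lay below that of all genes in the genotype comparison with LPS. In the other comparisons it lay above that of all genes. Such a fit leaves 1 library in a group, so these shares are descriptions. The cause of the changed counts was not tested, except that a wider spread and a size threshold lower a count by construction.

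The summed level was 2829, 1350, 1058 and 936.1 CPM (unstimulated WT and 3xGrk-/-, LPS-stimulated WT and 3xGrk-/-) with library size only, and 2748, 1391, 1027 and 965.4 CPM with each table scaled on its own. Over the genes tested in both tables it was 2532 CPM in unstimulated WT and 1039 CPM in LPS-stimulated 3xGrk-/-. Library size as the only scaling moved the median log2 fold change of all genes from -0.0017 to -0.086 without and from -0.0066 to -0.094 with LPS in the genotype comparisons.

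The deviations of same-numbered libraries from their group means correlated between -0.037 and 0.0553, so no strong shift shared by replicate number was seen. With a single pair of libraries per group and differences that are in part counting noise, these values cannot exclude that replicate numbers pair samples. A fit with the replicate number as a block called 52, 24, 54, 37 and 34 genes in the order above, beside 44.1%, 47.8%, 59.3%, 54.2% and 31% of all genes. The 24 of 56 in the genotype comparison with LPS lie near that share. Low counts limit the precision of genes such as Cdc6 and Gins1 with LPS, where a library held 3 counts of them.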
